A study of Mus musculus with 79 samples.

Results

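The acyl-CoA dehydrogenases were examined as a family of 9 genes in mouse quadriceps. The members were taken by name from the symbols of the array table (Acadvl, Acadl, Acadm, Acads, Acadsb, Acad8, Acad9, Acad10 and Acad11), out of 22335 named genes. Each was measured by 1 of the 35556 probesets. The animals were males of the BXD family, a set of inbred strains bred from the parents C57BL/6J and DBA/2J, and of those parents themselves. Cohorts of 42 strains received a chow diet (CD, Harlan 2018), and cohorts of 37 of these strains received a high fat diet (HFD, Harlan 06414) from 8 weeks of age. All mice were taken at 29 weeks after an overnight fast. Each array held RNA pooled from about 5 males of 1 strain on 1 diet, so the 79 arrays (42 CD and 37 HFD) are the units of replication and differences among the mice of a strain were not measured. The comparisons ask how the transcripts of the family differ with diet, among strains, and between the parental strains.

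Acyl-CoA dehydrogenases catalyse the first step of each turn of mitochondrial fatty acid β-oxidation. They place a double bond in an acyl-CoA and pass the electrons, through their FAD cofactor and the electron transfer flavoprotein, to the respiratory chain. The straight-chain enzymes divide the work by substrate length: Acadvl encodes the very long-chain, Acadl the long-chain, Acadm the medium-chain and Acads the short-chain enzyme. Acadsb and Acad8 encode enzymes that act on short branched acyl-CoAs made during the breakdown of isoleucine and valine. The product of Acad9 also serves as an assembly factor of respiratory complex I, and those of Acad10 and Acad11 carry a kinase-like domain beside the dehydrogenase domain. Skeletal muscle is a main site of fatty acid oxidation during fasting, and peroxisome proliferator-activated receptors (PPARs) are known regulators of several of these genes.

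Values are scores per probeset on arrays that all share the same mean (8.0 units) and SD (2.0 units). They behave as logarithms, but the base was not stated, so differences are given in score units and not as folds. Levels are compared only within a probeset. The mean of every member lay above the median of all probesets, at percentiles from 52.5 (Acad10) to 98.5 (Acadm), which describes signal on the array and not transcript number. Correlations between arrays over probesets lay between 0.961 and 0.992. Of the 10 skeletal muscle markers, which included Acta1, Ckm and Myh4, 9 were not called between diets, and their mean lay between 14.56 and 14.79 units on CD and between 14.50 and 14.83 on HFD. The arrays formed 2 batches per the titles, with 18 CD and 17 HFD arrays in batch 1. The limma batch term called 0 probesets, with 0 at an unadjusted p below 0.05 where 1778 would lie by chance, and the smallest p was 0.266. A limma term for diet by batch likewise had 0 probesets at an unadjusted p below 0.05, with a smallest p of 0.134. So few small p-values are below what chance gives. The deposited values thus behave as if the batches had been aligned within each diet, though no such step is stated. The batch term, the fits without it and the agreement between single batches therefore cannot show how much the batches differed at first.

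Since the 4 straight-chain genes were all higher on HFD (described next), their start regions are shown for the letters they share. The sequences are those of the RefSeq table for build GRCm38.p6, read 5′ to 3′ along the strand of the gene, from 250 bases before the annotated start to 50 bases after it. Capitals mark the hexamer AGGTCA on either strand, the core letters that nuclear receptors such as the PPARs bind.
Acadvl, chr11:70015379-70015678, strand -: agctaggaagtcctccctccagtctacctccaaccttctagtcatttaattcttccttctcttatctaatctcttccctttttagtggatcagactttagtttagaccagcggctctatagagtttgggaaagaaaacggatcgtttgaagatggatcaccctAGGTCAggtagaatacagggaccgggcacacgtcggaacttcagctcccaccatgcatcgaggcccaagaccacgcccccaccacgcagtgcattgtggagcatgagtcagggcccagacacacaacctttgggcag
Acadl, chr1:66863260-66863559, strand -: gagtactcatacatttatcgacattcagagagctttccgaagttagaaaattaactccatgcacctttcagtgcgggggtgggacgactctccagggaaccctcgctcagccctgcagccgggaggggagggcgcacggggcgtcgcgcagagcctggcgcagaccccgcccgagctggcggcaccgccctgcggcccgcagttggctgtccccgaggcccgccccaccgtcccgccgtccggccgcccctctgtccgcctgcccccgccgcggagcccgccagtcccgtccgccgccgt
Acadm, chr3:153944594-153944893, strand -: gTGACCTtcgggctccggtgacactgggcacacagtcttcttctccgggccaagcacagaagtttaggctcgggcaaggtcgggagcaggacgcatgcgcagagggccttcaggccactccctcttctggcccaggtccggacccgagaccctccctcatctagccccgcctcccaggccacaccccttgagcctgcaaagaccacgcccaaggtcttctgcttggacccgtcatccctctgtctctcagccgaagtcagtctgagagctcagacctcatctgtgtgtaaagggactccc
Acads, chr5:115119297-115119596, strand -: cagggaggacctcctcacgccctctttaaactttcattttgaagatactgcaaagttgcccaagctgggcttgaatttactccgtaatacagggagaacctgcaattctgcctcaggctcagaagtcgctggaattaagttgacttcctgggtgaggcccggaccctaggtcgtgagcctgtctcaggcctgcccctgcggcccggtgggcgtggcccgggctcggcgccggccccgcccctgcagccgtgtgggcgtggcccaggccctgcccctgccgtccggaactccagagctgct
The hexamer occurred in the windows of Acadvl, 87 bases before the start, and of Acadm, where it reads TGACCT and begins 249 bases before the start. It was absent from those of Acadl and Acads, and occurred in 2 of the 8 members with an entry. Among all 32851 promoters of the table, 16.3% held it. The direct repeat of the hexamer with 1 base between the copies, written AGGTCANAGGTCA and searched on both strands, occurred in 0 of the 8 and in 0.0396% of all promoters. TCAAGGTCA, the extended form read by estrogen-related receptors, which overlaps the hexamer, occurred in 0 of 8 and in 0.423% of all. The members that rose together thus did not share these letters within this window.

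The 4 straight-chain transcripts rose on HFD by 0.18 to 0.33 units, Acadsb of isoleucine breakdown fell by 0.13 units, and Acad8 of valine breakdown rose by 0.08 units at the edge of the threshold. Acad9, Acad10 and Acad11 did not pass. With limma on diet and batch over all arrays, 5 of 9 members were thus called higher at an adjusted p below 0.05, beside 18.9% of all probesets, and 1 of 9 was called lower, beside 19.3%. Together 6 of 9 were called, beside 38.1% of all probesets. The median difference over all probesets was -0.00066 units. In whole muscle, a change in RNA per cell and a change in the number of cells of a type cannot be told apart.

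**Figure D1:**
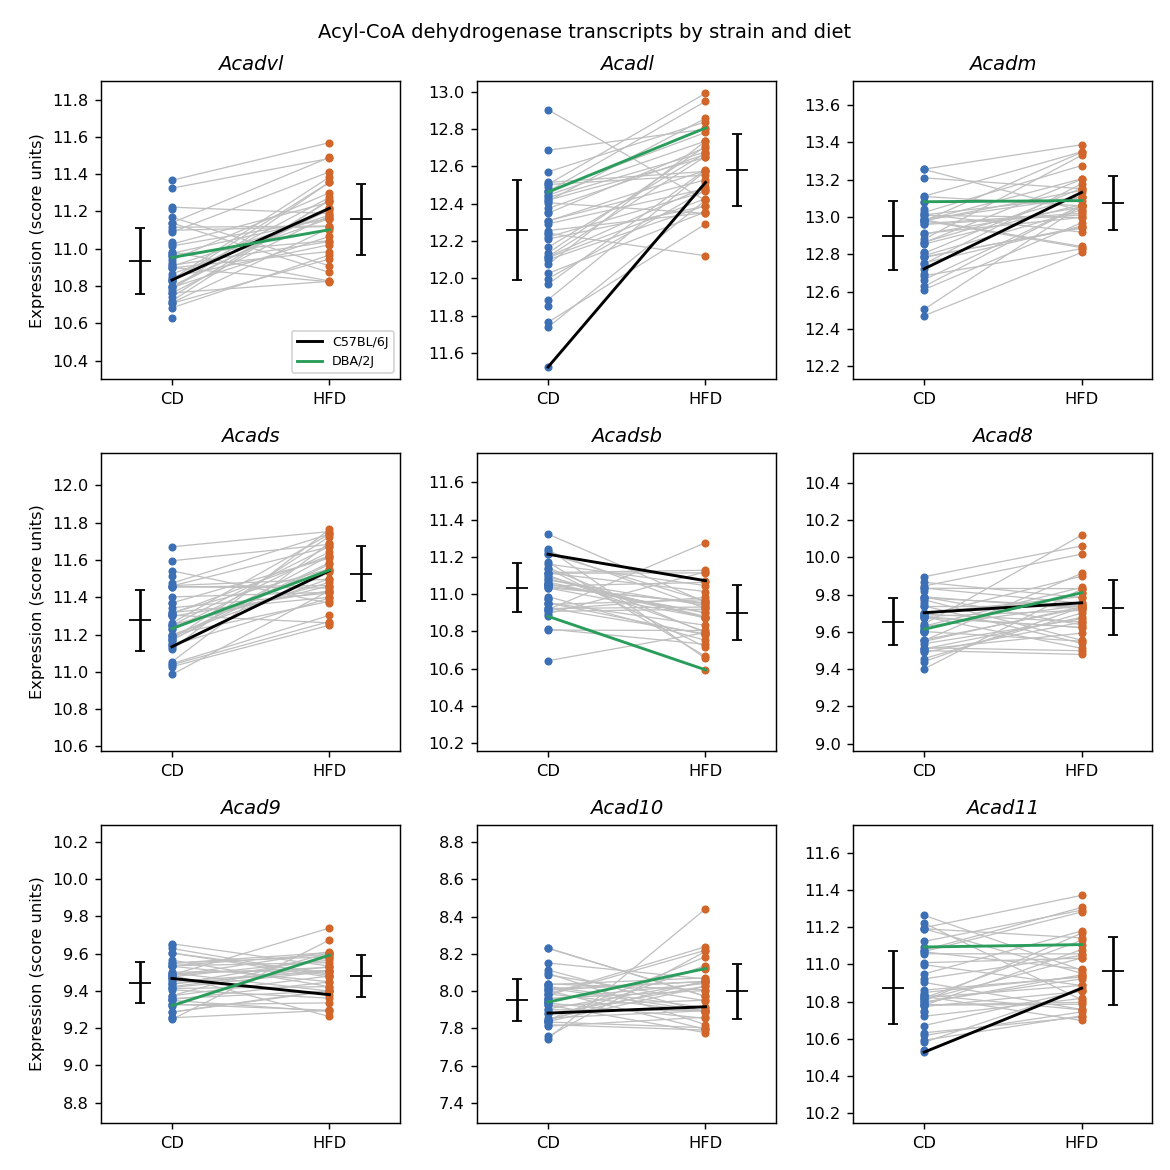
Expression of the 9 members in score units, 1 point per array, on CD (blue, 42 strains) and HFD (orange, 37 strains). Grey lines join the arrays of a strain, the black and green lines mark C57BL/6J and DBA/2J, and the bars beside the points give the mean ± SD. Each panel spans the same number of units. The lines of Acadvl, Acadl, Acadm and Acads mostly run upward and those of Acadsb mostly downward, while the CD and HFD points overlap for every member.

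Acadl, the long-chain gene, had the largest difference of the family. On CD it lay between 11.52 and 12.90 units with a median of 12.30 (12.26 ± 0.27, mean ± SD, n = 42), and on HFD between 12.12 and 12.99 with a median of 12.58 (12.58 ± 0.19, n = 37). The ranges overlapped over most of the HFD values, yet the level was higher on HFD in 34 of the 37 strains that had both diets. The difference was 0.33 units (SE 0.0531, 95% interval 0.22 to 0.43, limma adjusted p = 6.1e-07). By strain it ran from -0.49 in BXD98, which had the highest CD level of all strains, to 0.99 in C57BL/6J, which had the lowest. The CD value, from 1 array, is itself part of this difference, and a link of the response with the CD level was not tested.

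Acads, at the short end of the chain lengths, moved next most. Its CD values lay between 10.99 and 11.67 units around a median of 11.25 (11.28 ± 0.16), and its HFD values between 11.25 and 11.76 around 11.53 (11.53 ± 0.15). The lowest HFD value thus stood at the CD median. Acads was higher on HFD in 34 of 37 strains, with a difference of 0.25 units (SE 0.0352, 95% interval 0.18 to 0.32, limma adjusted p = 1.3e-08), the smallest adjusted p among the members.

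Acadvl, which acts on the longest chains, lay between 10.63 and 11.37 units on CD around a median of 10.91 (10.93 ± 0.18), and between 10.82 and 11.57 on HFD around 11.16 (11.16 ± 0.19). The groups overlapped widely, and 32 of 37 strains were higher on HFD. The difference was 0.22 units (SE 0.0415, 95% interval 0.14 to 0.31, limma adjusted p = 7.96e-06). Acadm of the medium chains lay between 12.47 and 13.26 units on CD around 12.94 (12.90 ± 0.19), and between 12.81 and 13.39 on HFD around 13.06 (13.08 ± 0.15). It was higher on HFD in 30 of 37 strains, by 0.18 units (SE 0.0381, 95% interval 0.10 to 0.25, limma adjusted p = 0.000118).

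Most of the paired strains had a rise of all 4 genes. All 4 were higher on HFD in 28 of 37 strains, 3 in 4 strains, 2 in 2 strains and 1 in 2 strains, which were BXD49 and BXD56. In BXD98 all 4 were lower on HFD. Much of this overlap follows from the high count of each gene alone. Any overlap beyond that was not tested, and the 4 genes were read on the same arrays. Each of the 4 genes was higher in at least 30 strains, beside 8.98% of all probesets that were higher in at least 29 of 37. Within the 12 strains whose arrays both lay in batch 1, the mean paired differences were 0.46 ± 0.23 units for Acadl (SD), 0.32 ± 0.22 for Acads, 0.32 ± 0.17 for Acadvl and 0.24 ± 0.20 for Acadm. Within the 17 strains of batch 2 they were 0.25 ± 0.31, 0.22 ± 0.19, 0.21 ± 0.25 and 0.16 ± 0.20. The direction was the same in both batches for each of them. For diet by batch, 0 probesets had an unadjusted limma p below 0.05, so this agreement is no independent replication.

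**Figure D2:**
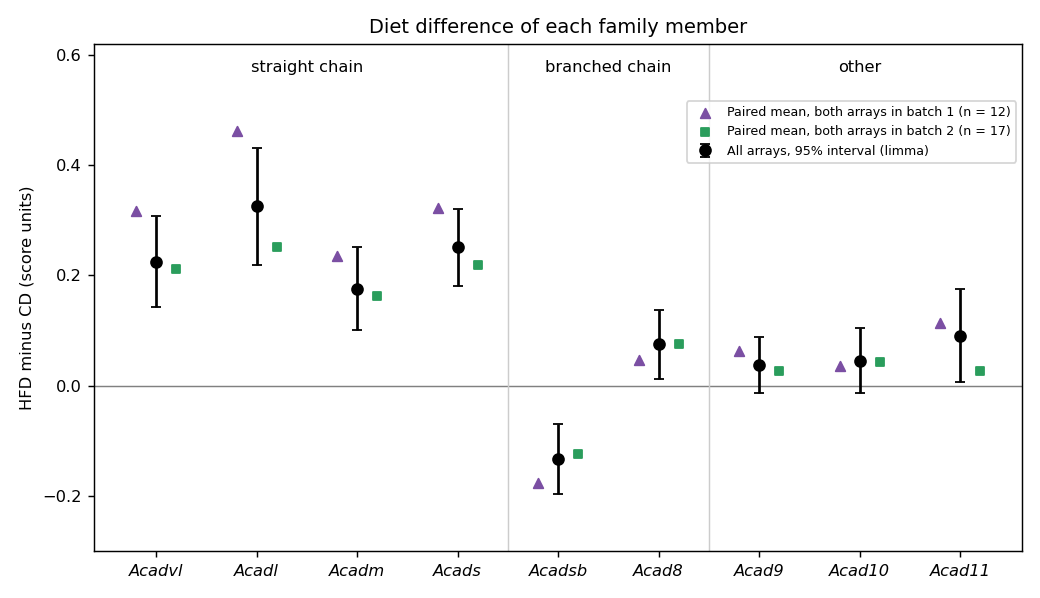
Difference between HFD and CD in score units for each member. Black points give the limma estimate over 79 arrays with its 95% interval, triangles the mean paired difference of the 12 strains with both arrays in batch 1, and squares that of the 17 strains with both in batch 2. The black points of the straight-chain genes lie between 0.18 and 0.33 and that of Acadsb at -0.13, and the batch means lie on the same side of 0 for each of these 5 genes.

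The size of the rise did not follow chain length. In order from very long to short chains the differences were 0.22, 0.33, 0.18 and 0.25 units. All 6 pairs were compared over the 37 paired strains with two-sided sign-flip permutation tests (100000 draws), adjusted over the 6 pairs. Acadl rose by 0.15 units more than Acadm (95% interval 0.09 to 0.20, in 30 of 37 strains, permutation adjusted p = 6e-05) and by 0.10 units more than Acadvl (95% interval of Acadvl minus Acadl -0.16 to -0.04, permutation adjusted p = 0.00441). Acads rose by more than Acadm (Acadm minus Acads -0.08, 95% interval -0.13 to -0.03, permutation adjusted p = 0.00864), and Acadvl by 0.05 units more than Acadm (95% interval 0.01 to 0.09, adjusted p = 0.0288). Acadl exceeded Acads by 0.07 units (95% interval 0.01 to 0.14, adjusted p = 0.0329), a call lost without the parental strains (adjusted p = 0.069) and without BXD63 (adjusted p = 0.0553). Acadvl and Acads were not told apart (Acadvl minus Acads -0.03 units, 95% interval -0.08 to 0.02, adjusted p = 0.283). Of the 5 pairs that passed, 2 did within the 12 strains of batch 1 and 0 within the 17 strains of batch 2, so the order within the straight-chain genes was not resolved there.

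Of the branched-chain members, Acadsb fell on HFD, and the rise of Acad8 was borderline. Acadsb, whose enzyme acts on 2-methylbutyryl-CoA from isoleucine, lay between 10.64 and 11.32 units on CD around a median of 11.05 (11.03 ± 0.13), and between 10.59 and 11.28 on HFD around 10.90 (10.90 ± 0.15). The groups overlapped over nearly their whole range, and 27 of 37 strains were lower on HFD. The difference was -0.13 units (SE 0.0318, 95% interval -0.20 to -0.07, limma adjusted p = 0.000457), with paired means of -0.18 units in batch 1 strains and -0.12 in batch 2 strains. By strain it ran from -0.59 in BXD84 to 0.36 in BXD69.

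Acad8, the isobutyryl-CoA dehydrogenase of valine breakdown, lay between 9.40 and 9.90 units on CD around 9.66 (9.66 ± 0.13) and between 9.48 and 10.12 on HFD around 9.73 (9.73 ± 0.15). It was higher on HFD in 21 strains and lower in 15. Its difference of 0.08 units (SE 0.0313, 95% interval 0.01 to 0.14) had a limma adjusted p of 0.0492. The call was lost in each batch alone (adjusted p = 0.352 in batch 1 and 0.183 in batch 2), on values normalized again by quantiles (adjusted p = 0.109), and in 24 of the 42 fits that each left out 1 strain, with BXD98 moving it most (adjusted p = 0.0908).

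The remaining members were not called. Acad11 differed by 0.09 units (95% interval 0.01 to 0.18, limma adjusted p = 0.0829) and was higher on HFD in 27 of 37 strains. It passed without strain BXD73, which had the largest fall (adjusted p = 0.0424), and when each array was centred on its median (adjusted p = 0.0485). Acad10 differed by 0.05 units (95% interval -0.01 to 0.10, adjusted p = 0.235, higher in 21 of 37 strains), and Acad9, the complex I assembly factor, by 0.04 units (95% interval -0.01 to 0.09, adjusted p = 0.261, higher in 25 of 37). The intervals leave room for a rise of about the size seen for Acadm (0.18 units) in Acad11, and for less in Acad9 and Acad10.

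The steps before and after the dehydrogenases moved in the same direction as the straight-chain genes. Of 11 genes for the uptake, activation and import of fatty acids, 10 rose, beside 18.9% of all probesets, and 1 was not called, with a median difference of 0.22 units. They included Fabp3, the cytosolic fatty acid carrier of muscle (0.42 units), Cpt2, the inner carnitine palmitoyltransferase (0.36), and Slc25a20, the carnitine-acylcarnitine carrier (0.28). Of 9 genes of the later β-oxidation steps, 8 rose, beside the same 18.9%, with a median of 0.24 units. Ech1 (0.55) and Decr1 (0.46), which handle unsaturated chains, and Acaa2 (0.36), the thiolase of the last step, rose the most there. Echs1, an enoyl-CoA hydratase, differed by 0.06 units (adjusted p = 0.28). Hadha, of the trifunctional protein that also has enoyl-CoA hydratase activity, rose by 0.19 units (adjusted p = 0.000192). All these values come from the limma fit over all probesets.

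The acceptors of the electrons rose too. Etfb (0.15 units), Etfa (0.12) and Etfdh (0.12), the electron transfer flavoprotein and its dehydrogenase, were called higher (3 of 7, beside 18.9% of all probesets), and the other 4 genes in this group, which serve FAD supply and regulation of the flavoprotein, were not called. Among 16 other genes of branched-chain amino acid breakdown, 2 rose, 2 fell and 12 were not called, with a median of 0.00 units, shares not above those of all probesets (18.9% higher and 19.3% lower). Acat1 (0.18 units) and Mccc2 (0.07) rose, and Pcca (-0.09) and Aldh6a1 (-0.08) fell. Among 12 complex I assembly genes, the partners of Acad9 included, 3 rose and 9 were not called (median 0.04 units), a share near the 18.9% of all probesets called higher and so no result about the group. Those called were Tmem126b (0.11), Ndufaf7 (0.10) and Timmdc1 (0.10).

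Of 7 related enzymes outside the list, 3 fell (beside 19.3% of all probesets called lower), 1 rose (beside 18.9% called higher) and 3 were not called. Ivd, the isovaleryl-CoA dehydrogenase of leucine breakdown, went from 11.13 ± 0.29 to 10.95 ± 0.24 units (difference -0.18, limma adjusted p = 0.0134), the same direction as Acadsb. Acox2 (-0.17) and Acoxl (-0.11), of the peroxisomal acyl-CoA oxidase family, fell and Acox3 (0.09) rose. Gcdh, the glutaryl-CoA dehydrogenase of lysine breakdown, differed by -0.06 units (adjusted p = 0.209) and was not called.

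**Figure D3:**
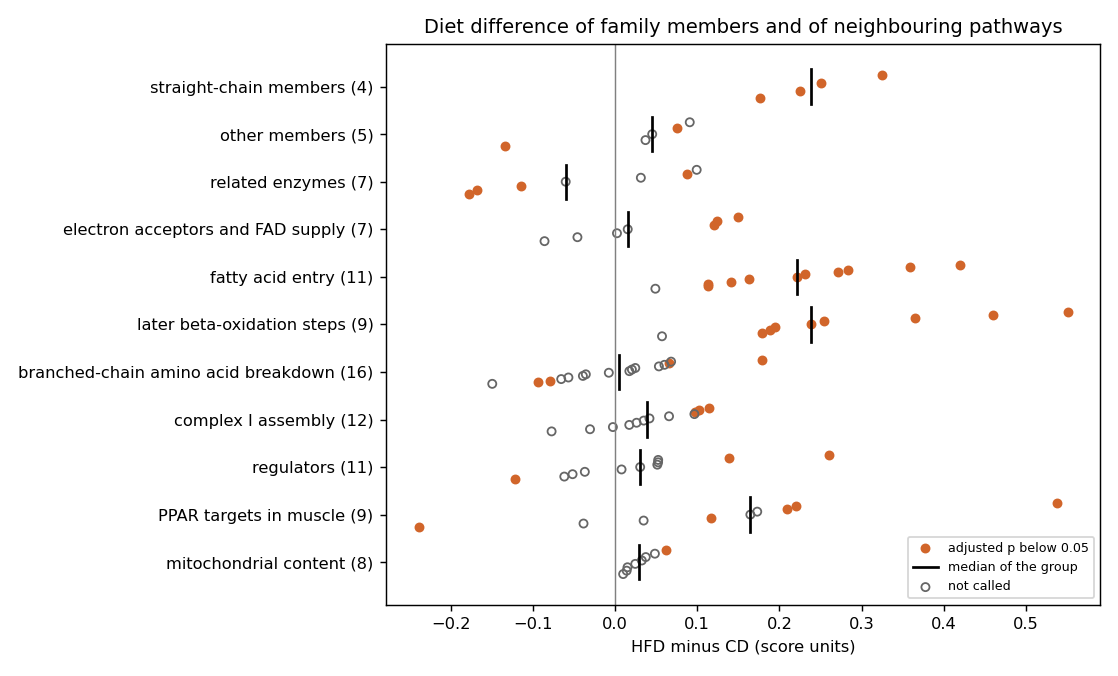
Difference between HFD and CD in score units for each gene of the family and of the neighbouring groups, with the number of genes in brackets. Filled points passed a limma adjusted p below 0.05, open points did not, and the vertical bar is the median of the group. Medians of the straight-chain genes, of fatty acid entry and of the later steps lie above 0.2 units, and that of mitochondrial content lies at 0.03.

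Among 11 transcripts of known regulators the calls came at about the rate of all probesets (18.9% higher and 19.3% lower). Pparg (0.26 units) and Ppargc1b (0.14) rose, Klf15 (-0.12) fell, and 8 were not called, among them Ppara (0.03, adjusted p = 0.722) and Ppard (0.05, adjusted p = 0.0971). Of 9 other genes known as PPAR targets in muscle, 4 rose (beside 18.9% of all probesets), led by Angptl4 (0.54), Ucp3 fell (-0.24, beside 19.3%) and 4 were not called, among them Pdk4 (-0.04, adjusted p = 0.566). Of 8 genes of mitochondrial content, such as Cs, Sdha and Cox4i1, 1 was higher, a share near the 18.9% of all probesets, with a median of 0.03 units. With the mean of those 8 genes as a covariate the limma differences were 0.25 units for Acadl, 0.20 for Acads, 0.16 for Acadvl, 0.11 for Acadm and -0.12 for Acadsb, each still called, while Acad8 (0.05, adjusted p = 0.188) was not.

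Markers of some other cell types moved with diet as well. Of 10 adipocyte markers 6 rose (beside 18.9% of all probesets), 1 fell (beside 19.3%) and 3 were not called, with a median of 0.29 units, and their mean lay between 9.77 and 11.13 units on CD and between 9.91 and 11.45 on HFD. Of 6 endothelial and of 6 macrophage markers 4 each rose, beside 18.9% of all probesets, with medians of 0.16 and 0.17 units, and their means lay between 9.70 and 10.50 units on CD and 10.06 and 10.62 on HFD (endothelial), and between 8.39 and 9.20 and between 8.51 and 9.56 (macrophage). Of 10 slow fibre markers 2 rose, with a median of -0.12 units, and of 5 red blood cell markers 1 rose, with a median of 0.08, shares close to the 18.9% of all probesets called higher. The slow fibre mean ranged from 8.86 to 11.03 units on CD and from 8.55 to 10.95 on HFD, and the red blood cell mean from 8.44 to 9.57 and from 8.28 to 9.92. None of these scales has a true zero, so no marker could be called absent. With the adipocyte mean as a covariate the differences were 0.31 units for Acadl, 0.23 for Acads, 0.20 for Acadvl, 0.16 for Acadm and -0.10 for Acadsb, and with the slow fibre mean they were 0.34, 0.26, 0.24, 0.19 and -0.14, each still called. Acad8 lost its call with the adipocyte mean (adjusted p = 0.0754) and kept it with the slow fibre mean (adjusted p = 0.0406). The part of endothelial cells and macrophages in the diet differences was not tested.

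Across strains the widest span of the family was that of Acadl on CD. Its level spanned 1.38 units, at percentile 84.9 of the ranges of all probesets, of which 0.21 units lay between C57BL/6J (11.52) and the next lowest strain, BXD87 (11.74). On HFD the span was 0.87 units, from BXD56 (12.12) to BXD69 (12.99). The other members spanned between 0.41 units (Acad9) and 0.79 (Acadm) on CD, and between 0.47 (Acad9) and 0.75 (Acadvl) on HFD. The median span of the members was 0.69 units on CD and 0.66 on HFD, beside 0.72 and 0.76 over all probesets. With 1 array per strain and diet, neighbours in these orders cannot be told apart.

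Whether strain differences recurred on both diets was asked with the strain term of a limma fit on diet, batch and strain over the 37 paired strains. It called 1 of 9 members, beside 13.6% of all probesets. That member was Acad11 (F = 3.82, adjusted p = 0.00104). It remained called in every alternative fit, with adjusted p between 0.00013 and 0.046. Acadl (F = 2.24, adjusted p = 0.0544) and Acadm (F = 2.13, adjusted p = 0.0706) lay just outside the threshold, and the others had adjusted p between 0.171 and 0.936. Acadl passed in 5 of the 9 alternative fits, such as that without a batch term (adjusted p = 0.0411), and not without the parental strains (adjusted p = 0.0528).

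The correlation of a member's CD level with its HFD level across the 37 strains, after removing batch means, put the same 3 members first. Acad11 had Pearson's r of 0.57 (two-sided permutation p = 0.00024) and Spearman's rho of 0.56 (permutation p = 0.00037). Its r was 0.68 without the 2 strains farthest from the median on CD, 0.79 in batch 1 strains, 0.63 in batch 2 strains and 0.14 in the 8 strains split over the batches. Acadl had r of 0.45 (permutation p = 0.00551) and rho of 0.54 (permutation p = 0.00069), with r of 0.41 without the 2 farthest strains and of 0.61, 0.31 and 0.87 in the same subsets. Acadm had r of 0.39 (permutation p = 0.0156) but rho of 0.31 (permutation p = 0.061), with r of 0.33 without the 2 farthest strains and of 0.50, 0.31 and 0.46 in the subsets. These are 3 of 9 such relations computed. The other 6 members had r between -0.22 (Acad10) and 0.29 (Acadvl), each with a permutation p above 0.05, and the median over all probesets was 0.14.

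**Figure D4:**
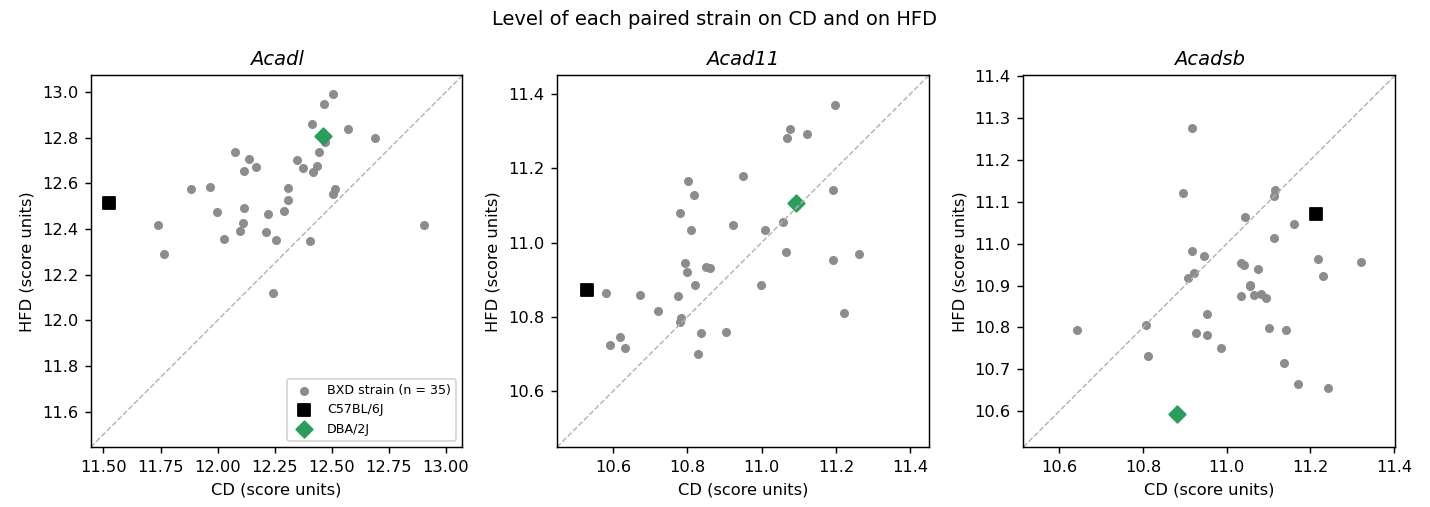
Level of each paired strain on CD (horizontal axis) and on HFD (vertical axis) in score units for Acadl, Acad11 and Acadsb, with equal scales within a panel and the dashed line at equal levels. Grey points are the 35 BXD strains, the square is C57BL/6J and the diamond DBA/2J. For Acadl nearly all strains lie above the line, and C57BL/6J lies at the far left on CD but within the range of the BXD strains on HFD.

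Between the parental strains Acadl had the widest gap on CD and over both diets, and Acadsb the widest on HFD. For Acadl, on CD C57BL/6J had 11.52 units against 12.46 for DBA/2J, a gap of -0.94, and on HFD 12.51 against 12.81, a gap of -0.29. C57BL/6J was the lowest of all 42 strains on CD and 15 from the lowest of 37 on HFD, whereas DBA/2J stood 33 from the lowest on both diets. On CD 31 of the 40 BXD strains lay between the parents and 9 lay above both, and on HFD 17 of 35 lay between them, 14 below both and 4 above both. With the spread of all paired strains, the difference over both diets was -0.62 units (SE 0.185, 95% interval -0.99 to -0.24, limma unadjusted p = 0.00199), which did not pass after adjustment over all probesets (adjusted p = 0.112, and 0.0585 to 0.549 in the alternative fits). There was 1 array per parent and diet, and whether the gap differed between diets was not tested.

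No member was called between the parents (0 of 9, beside 1.26% of all probesets). An unadjusted limma p below 0.05 was reached by 3 members. The share of all probesets at that unadjusted threshold was not computed, so this count is no result about the family. Acad11 was 10.53 units in C57BL/6J and 11.09 in DBA/2J on CD, where C57BL/6J was again the lowest of 42 strains, and 10.87 and 11.11 on HFD (difference -0.40, SE 0.123, limma adjusted p = 0.126). It passed on values normalized again by quantiles (adjusted p = 0.04). Acadsb was higher in C57BL/6J on both diets, with 11.21 against 10.88 units on CD and 11.07 against 10.59 on HFD, where DBA/2J was the lowest of 37 strains (difference 0.41, SE 0.134, limma adjusted p = 0.174). The other 6 members differed by between -0.16 (Acadm) and 0.02 units (Acad8), with adjusted p of 0.922 or more. Among the genes of the neighbouring groups, 3 were called between the parents, beside 1.26% of all probesets. Ivd (limma adjusted p = 0.000634) was 1 of 7 related enzymes. Bcat2 (0.00125), the branched-chain aminotransferase of mitochondria, was 1 of 16 genes of branched-chain amino acid breakdown. Rfk (0.00475), 1 of 7 genes of electron acceptors and FAD supply, is a riboflavin kinase whose value is uncertain since 12 probesets carry its symbol. The other groups had none.

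The straight-chain genes also varied together among strains on the same diet. Over 72 relations (36 pairs of members on each diet, batch means removed), 29 passed a permutation adjusted p below 0.05 with Pearson's r, all positive, and 26 with Spearman's rho. The share of pairs of all genes that would pass was not computed, so this count and those below are not read as a trait of the family. All 6 straight-chain pairs passed on both diets. On CD their r lay between 0.63 and 0.80 (permutation adjusted p = 8e-05 for each) and rho between 0.64 and 0.82 (adjusted p = 7.2e-05 for each, n = 42). On HFD r lay between 0.63 and 0.81 (permutation adjusted p between 8e-05 and 0.00024) and rho between 0.62 and 0.82 (adjusted p between 7.2e-05 and 0.00048, n = 37). Values of 8e-05 and 7.2e-05 come from the smallest p that 100000 draws can give, 1e-05. Without the 2 farthest strains r lay between 0.59 and 0.76 on CD and between 0.58 and 0.79 on HFD. Within batches it lay between 0.49 and 0.90 on CD and between 0.39 and 0.91 on HFD.

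Fewer of the pairs with another member passed. On CD 2 of 30 passed, Acadl with Acad11 (r = 0.47, rho adjusted p = 0.00144) and Acads with Acad8 (r = 0.38, adjusted p = 0.0332 by r and 0.0528 by rho in permutation tests). Within batches r was 0.52 and 0.43 for the first pair but -0.10 and 0.64 for the second, which thus did not hold in batch 1. On HFD 15 of 30 passed. Among these, Acad10 passed with each of the 4 straight-chain genes (r between 0.43 and 0.55), whereas on CD its r with them lay between -0.21 and 0.01, a difference between diets that was not tested. Acad11 passed with Acadvl, Acadl and Acads on HFD (r of 0.39, 0.49 and 0.40), but within batch 1 those r were -0.21, -0.01 and -0.03 against 0.81, 0.77 and 0.82 within batch 2, so the relation did not hold in both batches. Acadsb passed with no straight-chain gene, and its r with them lay between -0.28 and 0.05 over both diets.

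**Figure D5:**
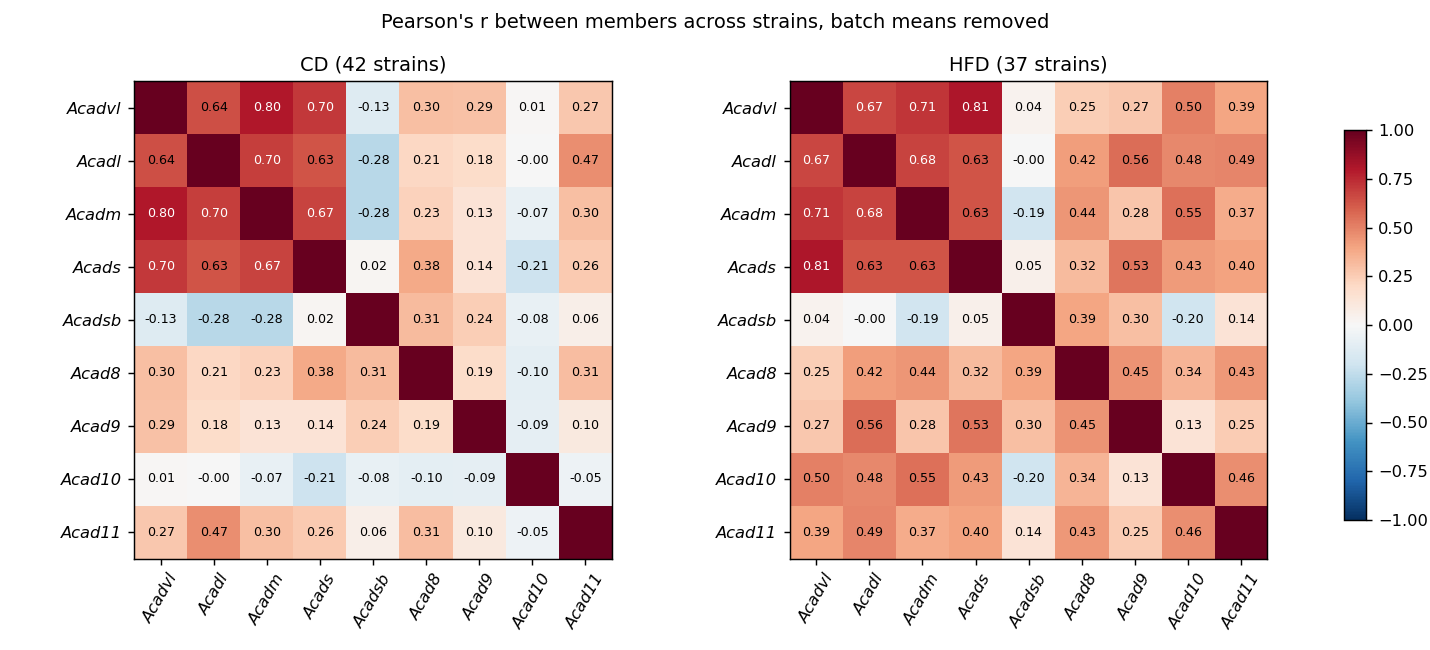
Pearson's r between members across strains on CD (left, 42 strains) and HFD (right, 37 strains), with batch means removed, from -1 (blue) to 1 (red). The block of Acadvl, Acadl, Acadm and Acads has r from 0.63 to 0.81 on both diets, and the row of Acadsb lies near or below 0 against that block.

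The means of other gene groups followed the straight-chain genes to different degrees, given here as descriptions of shared arrays. Their r with the mean of the later β-oxidation genes lay between 0.73 and 0.86 over both diets, and that with the mean of mitochondrial content between 0.55 (Acadl on CD) and 0.88 (Acadm on HFD). With the slow fibre mean r lay between 0.29 (Acadl on HFD) and 0.67 (Acadm on CD), and with the adipocyte mean between -0.05 and 0.27. Acadsb had r of -0.16 on CD and 0.01 on HFD with the later steps, and of 0.54 and 0.45 with branched-chain amino acid breakdown. With that last group the straight-chain genes had r between 0.30 (Acadl) and 0.54 (Acadvl) on CD and between 0.59 (Acadm) and 0.69 (Acads) on HFD.

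The genes most like each member were listed by Pearson's r over all 79 arrays among 22335 genes, after diet and batch means were removed. For Acadvl they were Acaa2 (r = 0.83), Decr1 (0.81) and Hsdl2 (0.77). For Acadl they were Hadha (0.83), the alpha subunit of the trifunctional protein, Decr1 (0.81) and Fabp3 (0.80). For Acadm they were Fabp3 (0.85), Acaa2 (0.84) and Idh2 (0.83), the mitochondrial NADP-dependent isocitrate dehydrogenase, and for Acads Decr1 (0.80), Acaa2 (0.77) and Acadvl (0.75). Acaa2 and Decr1 each stood on 3 of these 4 lists.

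For the other members r was lower, at most 0.71. Acad8 was closest to Gfm2 (r = 0.71), a mitochondrial ribosome recycling factor. The closest gene was Scamp1 (0.63), a membrane carrier protein, for Acadsb, and C10orf46 as the table names it (0.66) for Acad9. The list of Acad11 held Acat1 (0.60), of isoleucine and ketone body metabolism, and Necap2 (0.58). Acad10 had no gene above its r of 0.45 with Pisd, a phosphatidylserine decarboxylase.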

How the data were processed

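RNA of pooled quadriceps was measured on Affymetrix Mouse Gene 1.0 ST arrays. The values deposited by the authors are a score per probeset, with each array at a mean of 8.0 and an SD of 2.0. Affymetrix Expression Console is named in the submitters' processing notes, and the summarization, log base and any batch correction are not given in the sources used here. The tests were designed for log2 values and were applied unchanged to the scores. Precision is limited by the number of arrays, which have no read depth. Groups, strains and batches came from the titles, and 1 CD column named BXD92 was matched to the sample titled BXD92a.

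A gene with several probesets was represented by that of highest mean. Diet was fitted with limma 3.58.1 (lmFit, eBayes) in R 4.3.3 on diet and batch over 79 arrays, and adjusted p-values (Benjamini-Hochberg) cover all 35556 probesets. Strain and parental differences came from a fit on diet, batch and strain over paired strains, in which the parents are assumed to vary like the others. The methods of the study name Student's t-test, which served as an alternative and is called the methods' t-test. Where p-values compare strains, they measure the spread between strains. Correlations used 100000 permutations in Python 3.11.15 (numpy 2.4.6, scipy 1.17.1). The fits were tested on simulated data with 200 changed probesets. Arrays of a strain are paired by the labels. Deviations from the diet means correlated between the arrays of a strain with a median of 0.21, above 0.1 in 33 of 37 strains, against a median of -0.01 between different strains. Promoter letters came from RefSeq, build GRCm38.p6, where 8 of 9 members matched.

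The rule for named genes took the 9 members, at most the 3 called genes of largest difference in each direction per group, and genes from the 3 most like each member. Uncalled genes, markers and the genes called between the parents were named after their values were seen. The members, gene groups and tests were chosen with earlier results of these data known. Some genes counted in the groups or lists are not reported here by name. Strain BXD63 was left out in some alternatives because of those results. Alternatives covered batch, strains, normalization, tests, dim probesets and covariates. Those for the pair differences other than single batches, and all those for the correlations between members, were added after seeing the data.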

Additional observations from a re-analysis of the deposited data

How the results depend on the processing

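The called differences of Acadvl, Acadl, Acadm, Acads and Acadsb kept their direction and passed in all 15 alternative fits and in all 42 fits without 1 strain each, and Acad8 did not. When strain was a replicate block, over paired strains, 5 members were higher and 1 lower, as over all arrays, and 14441 probesets were called against 13551. In the same strains with no block, 4 members were higher, since Acad8 missed the threshold (adjusted p = 0.0554 against 0.0325 with the block), 1 was lower and 12756 probesets were called. Without 1 strain each, 4 to 6 members were higher, 1 was lower, and 13109 to 14074 probesets were called. Fewer arrays or probesets gave fewer calls for diet, with 4491 in batch 1, 8691 in batch 2 and 5292 without dim probesets. The methods' t-test called 6 members after adjustment, beside 13650 of all 35556 probesets, and 7 before it, beside 16450 of them. The strain term called 4820 probesets, against 2153 in batch 1 strains and 1722 in batch 2 strains. It called 1 member, against 2 with no batch term, by quantiles or by median centring, and 3 with limma-trend or without dim probesets. The cause was not tested. Apart from those of the t-test, these member counts stand without the share of all probesets called in each fit. None of the member counts is read as a result about the family. The parental difference called 447 probesets, against 242 in batch 1 strains and 4 on the parents' arrays alone, and 0 members, against 1 (Acad11) by quantiles. Of the pair differences 5 passed, against 2 in batch 1 strains and 0 in batch 2 strains. Relations between members that passed numbered 29, against 26 by quantiles and 40 by median centring. The span of Acadl on CD was 0.61 units between the 10th and 90th percentiles, against 1.38 in full. Averaging all probesets of a gene was not run, as each member had 1 probeset. No result changed its direction while called.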
